A study of Homo sapiens with 18 samples.

Results

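The genes described here are 38 genes of the p53 response and of apoptosis, measured in HEK293 cells transfected with RHOXF1, RHOXF2 or a control vector. Of these, 18 were listed as transcriptional targets of p53 and 20 as further regulators of cell death. The division is one of lists, and the 20 include genes that p53 also induces, such as PMAIP1. Rows of the expression table were taken where every gene symbol paired with the row belonged to the list. This gave 39 transcript clusters, the array's unit for 1 gene, out of 21214 clusters with a symbol and 33297 in all. Each gene had 1 cluster except CFLAR, which had 2 and is represented by the brighter.

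HEK293 is a cell line from human embryonic kidney. Cells received a RHOXF1 or RHOXF2 expression plasmid or an empty vector, named pCMV6-AC-GFP in the treatment text, by transient transfection with Lipofectamine 2000. RNA was taken after 24 h or 48 h, giving 6 groups of 3 arrays, which the series text calls biological triplicates. RHOXF1 and RHOXF2 encode X-linked homeodomain proteins of the reproductive homeobox family. Cells of all 6 groups had been transfected, and untransfected cells were not analysed here.

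The transcription factor p53 is held low by the ubiquitin ligase MDM2, itself a p53 target, and after stress it switches on genes of cell cycle arrest, DNA repair and cell death. In the mitochondrial pathway, BH3-only proteins (BBC3, PMAIP1, BCL2L11 and relatives) antagonise guardians such as BCL2 and MCL1, so that BAX and BAK1 open the outer mitochondrial membrane and APAF1 activates CASP9. In the receptor pathway, FAS and the TRAIL receptors TNFRSF10A and TNFRSF10B activate CASP8, which CFLAR restrains. HEK293 carries the adenoviral E1 genes, whose proteins bind p53, so these cells are a limited model of p53 signalling.

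Promoter sequences are shown for the members whose RefSeq promoter window held a close match to the p53 response element, because this element is the sequence that p53 is known to bind. The search used the p53 consensus decamer, a repeat of 10 bases. A match was 2 adjacent decamers with at most 2 mismatches in all and with the C and G of each core kept. The decamer reads the same on both strands, so a match on 1 strand is a match on both. In the 250 bases upstream of the start, 84 of 27305 genes (0.308%) and 3 of the 30 members with a window held a match, and 8 members had no window in the table. The members lie on the plus strand of GRCh38.p14, AEN at chr15:88621291-88621339, FAS at chr10:88991294-88991343 and MDM2 at chr12:68808908-68808957. Capitals mark the match.
AEN: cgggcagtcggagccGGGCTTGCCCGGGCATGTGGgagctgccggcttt
FAS: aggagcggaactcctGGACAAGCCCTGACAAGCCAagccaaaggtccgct
MDM2: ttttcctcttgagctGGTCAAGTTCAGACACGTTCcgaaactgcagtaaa
A match is a description of the letters and not a site of measured binding. Windows without a match say nothing about p53 at those genes.

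All values are log2 expression values on the RMA scale. The transfected genes followed the labels: RHOXF1 averaged 12.25 in RHOXF1 arrays at 24 h against 6.34 in control. Both clusters shared by RHOXF2 and RHOXF2B held the same values, and averaged 12.83 in RHOXF2 arrays at 24 h against 6.81. In the RHOXF2 arrays RHOXF1 itself lay at 6.94 to 7.89 at 24 h and at 7.03 to 9.12 at 48 h, above the control ranges of 6.13 to 6.56 and 5.67 to 6.51. Along the leading principal component (34.1% of the variance) the times separated, with 24 h arrays at -17.2 to -8.71 and 48 h arrays at 9.36 to 26.3. The exception was RHOXF2 replicate 3 at 48 h, which stood apart at -4.48. Control replicates 2 and 3 at 48 h lay farthest out, at 23.7 and 26.3, against 11.6 for control replicate 1. Of 8 marker genes of HEK293, 7 lay above the array median on all 18 arrays, and PAX2 on 1. Of 22 measured markers of other cell types, PTPRC, MS4A1, PECAM1, DCN, ALB, MYH1 and DDX4 lay below the lower quartile on every array. CD68, COL1A1, COL3A1 and DES lay above the median on every array, and the liver gene APOA1 on 13. Other markers of the same and further cell types were not as low. The T cell genes CD3D and CD3E lay below the lower quartile on 8 and 3 arrays, and the endothelial gene VWF on 6. CD79A (B cell), CD14 and CSF1R (monocyte), CDH5 (endothelium), HBB (erythroid), DAZL (germ cell) and SFTPC (lung) did so on 0. RNA came from whole cultures, so a change in a share of the cells and a smaller change in all of them cannot be told apart.

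Most of the genes lay in the upper part of the arrays' range. Of the 38, 32 lay above the array median on all 18 arrays. BCL2A1, a guardian, lay below the lower quartile of every array at 4.46 to 4.83. The stress cytokine GDF15, the oxidoreductase TP53I3, the TRAIL receptor TNFRSF10A and the BH3-only gene BIK lay above the array median on no array, and CFLAR on 14 of 18. The median residual SD within groups was 0.12 over the members and 0.13 over all clusters tested.

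Whether RHOXF1 or RHOXF2 altered the p53 and apoptosis genes was asked at each time against the control vector. No member passed the test with either gene at either time. By limma with Benjamini-Hochberg adjustment over all clusters at 0.05 (the test meant by "called" throughout), 0 of 38 were called with RHOXF1 at 24 h, where 0.00471% of all clusters were called. Likewise 0 of 38 were called with RHOXF2 at 24 h (0.00943% of all clusters), 0 with RHOXF1 at 48 h (0.00943%) and 0 with RHOXF2 at 48 h (0.0943%). These shares stand for 1 and 2 of 21214 clusters at 24 h, and for 2 and 20 at 48 h. The clusters tested include those of the transfected genes. The absence of calls is therefore not particular to the members. At an unadjusted p under 0.05, the members numbered 1 with RHOXF1 at 24 h (4.76% of all clusters), 2 with RHOXF2 at 24 h (7.99%), 3 with RHOXF1 at 48 h (7.22%) and 4 with RHOXF2 at 48 h (12.2%). Both comparisons at a time use the same 3 control arrays.

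The size of any difference was bounded as follows. All 38 limma 95% intervals in each of the 4 comparisons lay within 2-fold either way. Within 1.5-fold lay 38 intervals for each gene at 24 h, 35 for RHOXF1 at 48 h and 32 for RHOXF2 at 48 h. The widest reached 0.86 on the log2 scale, for CFLAR with RHOXF2 at 48 h. The median difference of the members was 0.03 with RHOXF1 and 0.06 with RHOXF2 at 24 h, against 0.00045 and -0.0032 over all clusters. At 48 h it was 1.83e-05 with RHOXF1 and 0.06 with RHOXF2, against 0.008 and 0.013. Since 32 of the members lie above the array median, the closer background is the clusters above the median level, whose medians with RHOXF1 and RHOXF2 were 0.0337 and 0.0357 at 24 h and 0.0124 and 0.017 at 48 h. Members with a difference above 0 numbered 25 of 38 for both genes at 24 h (50.1% and 48.8% of all clusters), 19 with RHOXF1 at 48 h (52.6%) and 24 with RHOXF2 at 48 h (53.9%).

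**Figure D1:**
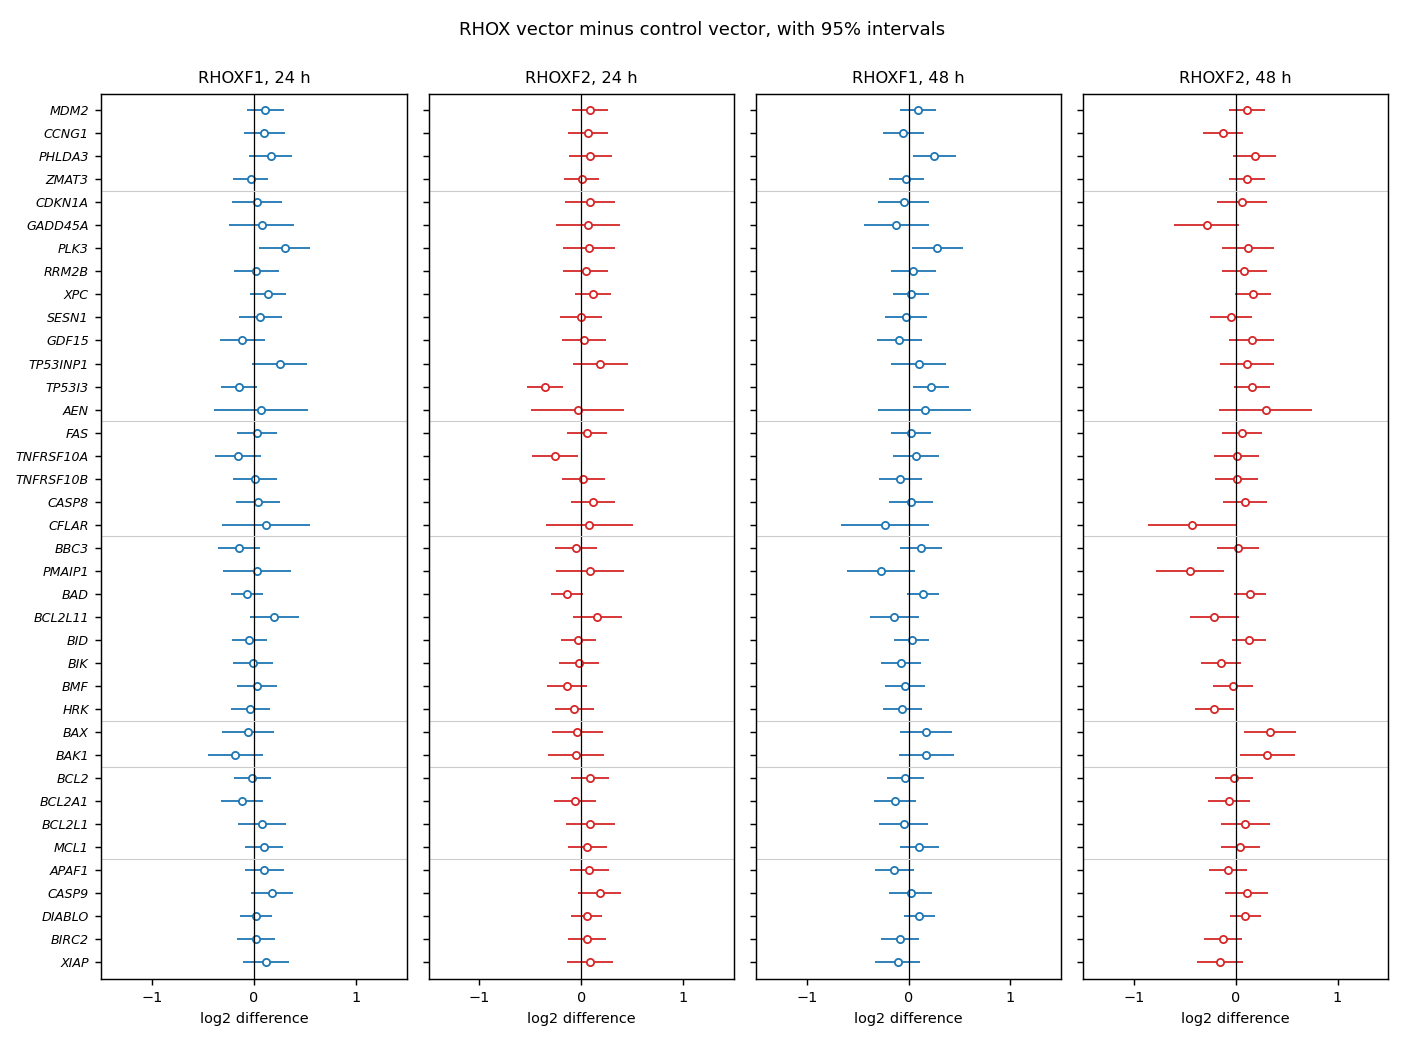
Log2 difference from the control vector (x axis) for each of the 38 genes (y axis, grouped by role) with RHOXF1 or RHOXF2 at 24 h and 48 h; points are limma estimates over 3 arrays against 3 and bars their 95% intervals. No member was called in any panel, and all intervals lie within 2-fold.

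The genes of p53 feedback were MDM2, the p53 ligase, CCNG1 (cyclin G1), PHLDA3, an inhibitor of AKT signalling, and ZMAT3, an RNA-binding zinc finger protein. MDM2 lay at 10.79, 10.73 and 10.94 in control arrays at 24 h, at 10.87, 10.93 and 10.99 with RHOXF1 and at 10.91, 10.80 and 11.00 with RHOXF2. Its differences were 0.11 and 0.09 at 24 h and 0.09 and 0.11 at 48 h, and both vectors overlapped the control arrays at both times. At 24 h replicate numbers were taken to pair the vectors with control. MDM2 was higher than in the control array of the same number in 3 of 3 pairs with each gene. With the number as a block its adjusted p was 0.864 with RHOXF1 and 0.797 with RHOXF2. Over all clusters 17.8% and 14.8% were higher in all pairs. PHLDA3 at 48 h lay at 7.72, 7.89 and 7.67 in control, at 7.92, 8.24 and 7.88 with RHOXF1, and at 7.92, 7.94 and 7.98 with RHOXF2. The RHOXF2 arrays were all above control, whereas 1 RHOXF1 array fell within the control range. Its differences were 0.25 ± 0.10 (SE, adjusted p = 0.647) with RHOXF1 and 0.19 ± 0.10 (adjusted p = 0.48) with RHOXF2. Without RHOXF1 replicate 2 the former was 0.14. CCNG1 and ZMAT3 differed from control by -0.12 to 0.11 in the 4 comparisons.

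Among the p53 targets of arrest and repair, CDKN1A, the cyclin-dependent kinase inhibitor p21, gave no difference beyond its spread. It lay at 8.19, 8.06 and 8.20 in control at 24 h, at 8.18, 8.14 and 8.22 with RHOXF1, and at 8.31, 8.37 and 8.02 with RHOXF2. All groups overlapped, and the differences were 0.03 and 0.09 at 24 h and -0.05 and 0.06 at 48 h. The lower and upper 95% limits at 24 h with RHOXF1 were -0.21 and 0.28.

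PLK3, a kinase of the polo family, had the smallest unadjusted p of the members with RHOXF1 at 24 h. It lay at 7.31, 7.30 and 7.56 in control and at 7.48, 7.86 and 7.73 with RHOXF1, so the lowest RHOXF1 array fell within the control range. The difference was 0.30 ± 0.12 (adjusted p = 0.961). At 48 h PLK3 lay at 7.38, 7.37 and 7.47 in control and at 7.62, 7.93 and 7.53 with RHOXF1, without overlap, with a difference of 0.28 ± 0.12 (adjusted p = 0.665) that was 0.17 without RHOXF1 replicate 2. With RHOXF2 its differences were 0.08 at 24 h and 0.12 at 48 h.

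TP53INP1, a p53-induced nuclear protein, differed by 0.25 ± 0.13 with RHOXF1 at 24 h (adjusted p = 0.961) and by 0.19 with RHOXF2. Without control replicate 1 the former was 0.16. The DNA repair gene XPC differed by 0.14 and 0.12 at 24 h and by 0.02 and 0.17 at 48 h, for RHOXF1 and RHOXF2. The sestrin SESN1, the ribonucleotide reductase subunit RRM2B and GDF15 differed by -0.11 to 0.16 in the 4 comparisons. GADD45A, a growth arrest and DNA damage gene, differed by 0.07 and 0.06 at 24 h and by -0.12 and -0.29 at 48 h.

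TP53I3 was the member nearest to the threshold in the comparisons with control at 24 h. It lay at 6.53, 6.47 and 6.63 in control, at 6.34, 6.46 and 6.40 with RHOXF1 and at 6.22, 6.16 and 6.18 with RHOXF2. All arrays of both vectors lay below all control arrays. The difference was -0.36 ± 0.09 with RHOXF2 (adjusted p = 0.333) and -0.15 ± 0.09 with RHOXF1 (adjusted p = 0.961). At 48 h TP53I3 lay at 6.06, 6.25 and 6.17 in control, at 6.24, 6.42 and 6.48 with RHOXF1 and at 6.20, 6.44 and 6.32 with RHOXF2. These groups overlapped and the differences had the other sign, 0.22 ± 0.09 with RHOXF1 (adjusted p = 0.631) and 0.16 ± 0.09 with RHOXF2 (adjusted p = 0.464). The difference between the effects at 48 h and 24 h was 0.52 ± 0.12 for RHOXF2 (adjusted p = 0.488) and 0.37 ± 0.12 for RHOXF1 (adjusted p = 0.95).

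**Figure D2:**
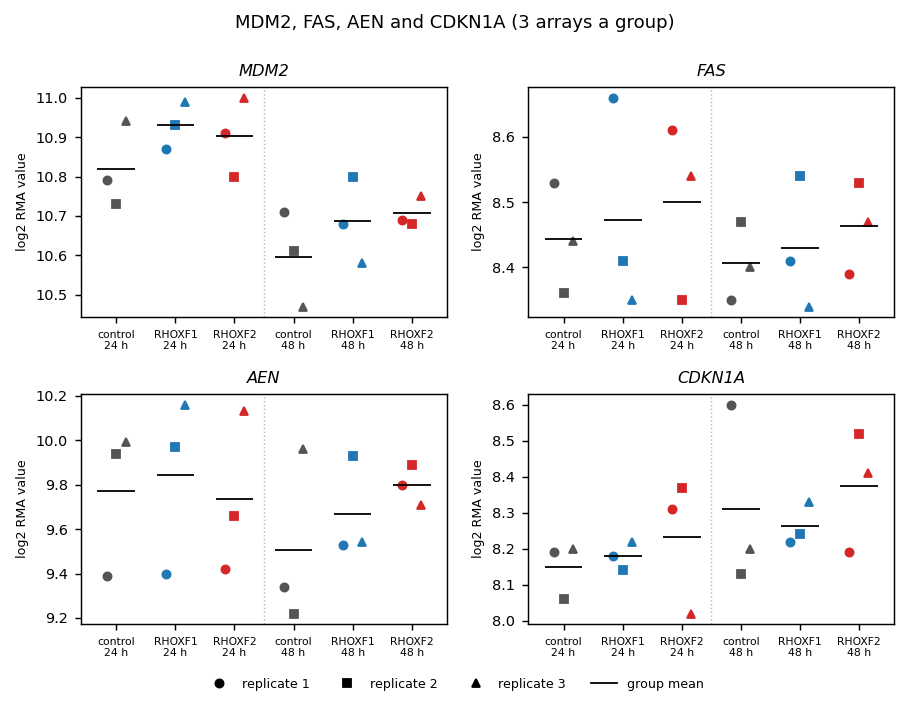
Log2 RMA value (y axis) of MDM2, FAS, AEN and CDKN1A on each array (points, shape by replicate number) in the 6 groups (x axis), with group means as bars. The groups overlap with control in all 4 genes at both times, and AEN has the widest spread, with the replicate 1 arrays at 24 h at 9.39 to 9.42 in all 3 vectors.

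AEN, an exonuclease of apoptosis, and the death receptor FAS carry the promoter matches shown above together with MDM2. AEN at 24 h lay at 9.39, 9.94 and 9.99 in control, at 9.40, 9.97 and 10.16 with RHOXF1 and at 9.42, 9.66 and 10.13 with RHOXF2. Replicate 1 was the lowest array in all 3 groups, and the SE of a difference was 0.22, the largest among the members. Its differences were 0.07 and -0.04 at 24 h and 0.16 and 0.30 at 48 h. FAS lay at 8.53, 8.36 and 8.44 in control at 24 h and differed by 0.02 to 0.06 in the 4 comparisons. None of these 3 members was called in any of the 11 comparisons fitted.

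In the receptor pathway, TNFRSF10A lay at 5.45, 5.65 and 5.54 in control at 24 h and at 5.29, 5.41 and 5.16 with RHOXF2. The RHOXF2 arrays were all below control, with a difference of -0.26 ± 0.11 (adjusted p = 0.561), and the RHOXF1 arrays overlapped control (-0.16). At 48 h the differences were 0.07 and 0.01. CFLAR at 48 h lay at 7.17, 7.66 and 8.27 in control, at 7.64, 7.29 and 7.47 with RHOXF1 and at 7.42, 7.41 and 6.98 with RHOXF2. The groups overlapped, with differences of -0.23 with RHOXF1 (adjusted p = 0.854) and -0.43 ± 0.21 with RHOXF2 (adjusted p = 0.416). Leaving out control replicate 3 moved the RHOXF2 value to -0.14 (adjusted p = 0.882), and leaving out the first control array moved it to -0.69 (adjusted p = 0.0801). The second CFLAR cluster gave -0.15 and -0.09. TNFRSF10B and the initiator caspase CASP8 differed by -0.08 to 0.12 in the 4 comparisons. TP53I3 and TNFRSF10A are dim, and dim clusters leaned the same way: the second of 5 bins by level had a median of -0.09 with RHOXF2 at 24 h, and 20 of 22 markers of other cell types had a difference below 0. Their part in these values was not tested.

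Of the 8 BH3-only genes, PMAIP1 (NOXA) with RHOXF2 at 48 h had the smallest unadjusted p of any member in that comparison. It lay at 10.99, 11.30 and 11.36 in control, at 11.11, 10.55 and 11.18 with RHOXF1 and at 11.17, 10.68 and 10.45 with RHOXF2. Replicate 1 with RHOXF2 lay within the control range and the other two below it. The difference was -0.45 ± 0.16 with RHOXF2 (adjusted p = 0.271) and -0.27 ± 0.16 with RHOXF1 (adjusted p = 0.755). Without RHOXF1 replicate 2 the RHOXF1 difference was -0.07. At 24 h it was 0.08 and 0.03.

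HRK (Harakiri) with RHOXF2 at 48 h lay at 9.52, 9.60 and 9.43 against 9.58, 9.80 and 9.82 in control, overlapping by 1 array, with a difference of -0.21 ± 0.09 (adjusted p = 0.354). BAD, a partner of BCL2L1, was below all control arrays with RHOXF2 at 24 h, at 7.78, 7.81 and 7.73 against 7.97, 7.87 and 7.88 (-0.14 ± 0.07, adjusted p = 0.679). With RHOXF1 at 48 h BAD was above all control arrays, at 7.93, 8.03 and 8.05 against 7.90, 7.92 and 7.77 (0.14 ± 0.07, adjusted p = 0.725). BCL2L11 (BIM) differed by 0.20 ± 0.11 with RHOXF1 at 24 h (adjusted p = 0.961) and by -0.21 with RHOXF2 at 48 h, and BMF by -0.14 ± 0.09 with RHOXF2 at 24 h (adjusted p = 0.77). With 1 array left out BCL2L11 at 24 h ranged from 0.12 (without RHOXF1 replicate 3) to 0.33 (without RHOXF1 replicate 1), and was 0.31 without control replicate 3. BMF was -0.09 without RHOXF2 replicate 2 and -0.22 without control replicate 2. BBC3 (PUMA), a p53 target, differed by -0.15 and -0.05 at 24 h and by 0.12 and 0.02 at 48 h. BID and BIK differed by -0.15 to 0.13.

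The pore formers BAX and BAK1 had differences above 0 with both genes at 48 h. BAX lay at 10.24, 9.88 and 9.69 in control, at 10.09, 10.23 and 10.01 with RHOXF1 and at 10.12, 10.17 and 10.54 with RHOXF2. Arrays of both vectors lay within the control range, and the differences were 0.17 with RHOXF1 and 0.34 ± 0.12 with RHOXF2 (adjusted p = 0.283). BAK1 lay at 8.74, 8.53 and 8.68 in control, at 8.81, 8.76 and 8.92 with RHOXF1 and at 8.77, 8.82 and 9.29 with RHOXF2. Every RHOX array lay above control, with differences of 0.18 and 0.31 ± 0.13 (RHOXF2, adjusted p = 0.345). At 24 h the differences lay between -0.18 and -0.04 for both genes.

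The RHOXF2 differences at 48 h leaned on single arrays of both groups, among them RHOXF2 replicate 3, which stood apart on the first component. Without it the difference was 0.21 for BAX, 0.15 for BAK1, -0.30 for PMAIP1, -0.17 for HRK and -0.28 for CFLAR, with adjusted p of 0.988 to 0.997. Without control replicate 3 at 48 h BAX also gave 0.21 (adjusted p = 0.678). Without control replicate 1 at 48 h BAX gave 0.49, and 125 of all clusters were called in place of 20. Over all alternatives the adjusted p of these 5 genes ran from 0.0551 (BAX) to 0.997.

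Of the guardians, BCL2, BCL2L1 (BCL-XL), MCL1 and BCL2A1 differed from control by -0.13 to 0.11 in the 4 comparisons. Of the apoptosome and its inhibitors, CASP9 lay at 8.09, 7.96 and 8.06 in control at 24 h, at 8.28, 8.10 and 8.25 with RHOXF1 and at 8.31, 8.15 and 8.18 with RHOXF2. All arrays of both vectors lay above control. The difference was 0.18 ± 0.10 with either gene (adjusted p = 0.961 with RHOXF1 and 0.698 with RHOXF2), and at 48 h it was 0.02 and 0.11. APAF1, DIABLO (an antagonist of the inhibitors of apoptosis), BIRC2 and XIAP differed by -0.16 to 0.12.

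**Figure D3:**
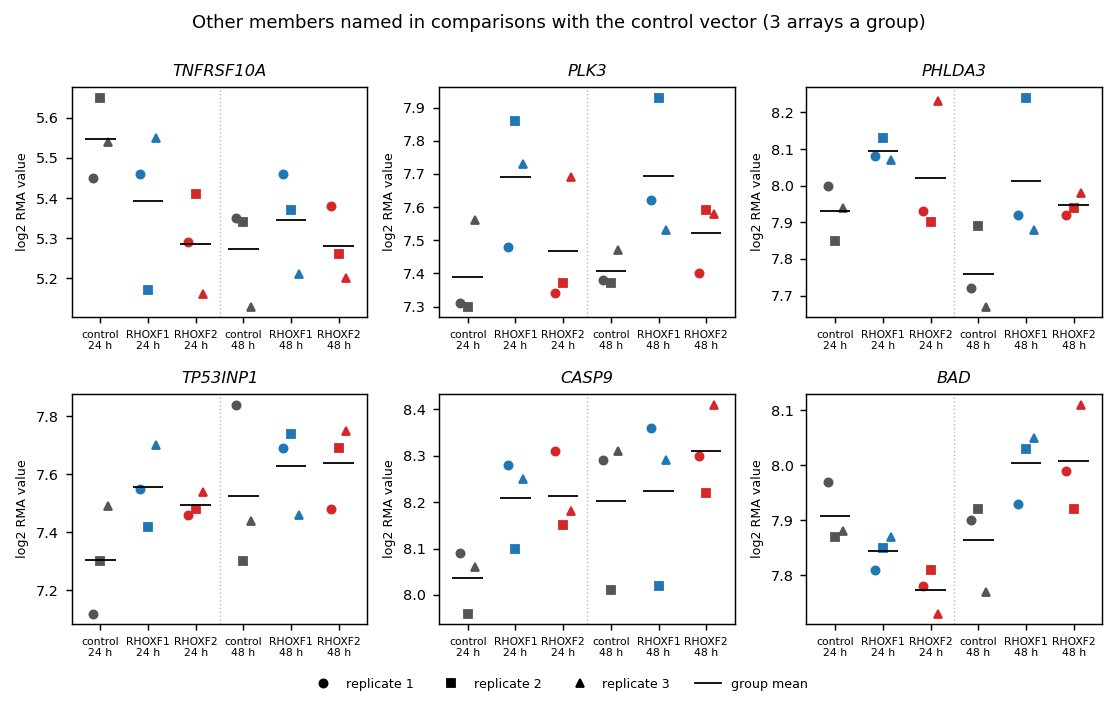
Log2 RMA value (y axis) on each array (points, shape by replicate number) of TNFRSF10A, PLK3, PHLDA3, TP53INP1, CASP9 and BAD in the 6 groups (x axis), with group means as bars. At 24 h CASP9 lies above all control arrays with both genes and TNFRSF10A below them with RHOXF2, by differences of 0.18 and -0.26 that were not called.

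Arrays that did not overlap control were counted among the members and over all clusters. With RHOXF1 at 24 h, 6 of 38 members did not overlap control (9.53% of all clusters), with RHOXF2 at 24 h 6 (11.1%), with RHOXF1 at 48 h 4 (12.6%) and with RHOXF2 at 48 h 6 (11.8%).

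RHOXF1 and RHOXF2 were also set against each other. No member differed between them by the test: 0 of 38 were called at 24 h (0.0141% of all clusters) and 0 at 48 h (0.0519%), with 1 member at an unadjusted p under 0.05 each time (1.7% and 3.52%). At 24 h RHOXF1 minus RHOXF2 was 0.21 ± 0.09 for TP53I3, 0.17 ± 0.09 for BMF and 0.22 ± 0.12 for PLK3 (adjusted p = 1 for all 3). At 48 h it was -0.24 ± 0.10 for GDF15, -0.15 ± 0.08 for XPC and 0.15 ± 0.09 for HRK (adjusted p = 0.998 for all 3). Without RHOXF1 replicate 2, PLK3 became 0.14 and HRK 0.23, and without RHOXF1 replicate 1 BMF became 0.11. Without RHOXF2 replicate 3 the 48 h values were -0.24, -0.11 and 0.11. Arrays did not overlap for 3 of 38 members at 24 h, TP53I3, BAD and BMF (6.2% of all clusters), and for 0 at 48 h (9.23%). All 38 intervals lay within 2-fold at both times, and 38 and 36 within 1.5-fold.

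No change of either effect between the times passed the test. For RHOXF1 0 of 38 members were called (0% of all clusters) and 1 had an unadjusted p under 0.05 (4.7%). For RHOXF2 0 were called (0.0141%) and 5 had such a p (8.75%). Besides TP53I3, BAD changed its RHOXF2 difference by 0.28 (adjusted p = 0.557) and PMAIP1 by -0.54 ± 0.23 (adjusted p = 0.56). Without RHOXF2 replicate 3 at 48 h the 3 values were 0.52 for TP53I3, 0.23 for BAD and -0.38 for PMAIP1. For RHOXF1, BCL2L11 gave -0.34 and BAD 0.21 (adjusted p = 0.95 for both).

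Over time in control-vector cells some members passed the test, at a share near that of all clusters. Between 24 h and 48 h, 9 of 38 were called, 23.7% against 17.8% of all clusters. Of these 6 were higher at 48 h (9.89% of all clusters) and 3 lower (7.89%). With only clusters above the median level in the fit, the closer background, 26.8% of clusters were called. The members called in that fit were CCNG1, GADD45A, PMAIP1, HRK, BAX and BAK1. BAX, BAK1 and TP53I3 fell, and CFLAR, PMAIP1, GADD45A, HRK, BMF and CCNG1 rose. The called genes were 4 of the 18 listed as p53 targets and 5 of the 20 listed as other regulators, PMAIP1 among the latter. Array numbers in the labels, which are not the replicate numbers, run on from 24 h to 48 h with a gap. The effect of time and that of the array run therefore cannot be told apart.

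Both pore formers fell. BAX lay at 10.60, 10.54 and 10.66 in control at 24 h and at 10.24, 9.88 and 9.69 at 48 h. All 48 h arrays were below all 24 h arrays, and BAX fell by 0.66 ± 0.12 on the log2 scale, to 0.633 of its 24 h level (adjusted p = 0.00201). BAK1 went from 9.03, 9.11 and 9.18 to 8.74, 8.53 and 8.68, also without overlap, and fell by 0.45 ± 0.13 (adjusted p = 0.024). The BAK1 call was lost without control replicate 2 or 3 at 24 h (adjusted p = 0.0632 and 0.0656) or replicate 2 or 3 at 48 h (0.086 and 0.0558), within a range over the alternatives of 0.0134 to 0.086.

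Of the 8 BH3-only genes 3 were called, all higher at 48 h, and 5 were not. Of all clusters 17.8% were called, and 9.89% were called higher. PMAIP1 lay at 10.42, 10.30 and 10.43 at 24 h and at 10.99, 11.30 and 11.36 at 48 h. The arrays did not overlap, and PMAIP1 rose 1.78-fold (0.84 ± 0.16, adjusted p = 0.00236). HRK rose by 0.42 ± 0.09 (adjusted p = 0.00536), from 9.47, 9.24 and 9.24 to 9.58, 9.80 and 9.82. BMF, which senses cytoskeletal stress, rose by 0.37 ± 0.09 (adjusted p = 0.0117), from 7.23, 7.00 and 7.25 to 7.63, 7.47 and 7.50. Neither gene's 48 h arrays overlapped its 24 h arrays. The BMF call was lost without control replicate 2 at 24 h (adjusted p = 0.0673, range over the alternatives 0.00277 to 0.0673) and with only the control groups in the fit. The values of the 5 others were BIK 0.22 (adjusted p = 0.106), BBC3 -0.15, BID -0.10, BCL2L11 0.05 and BAD -0.05.

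CFLAR, the inhibitor of CASP8 at death receptors, had the largest change among the members. It lay at 6.62, 6.92 and 6.69 at 24 h and at 7.17, 7.66 and 8.27 at 48 h. The 48 h arrays were all higher but widely spread, and CFLAR rose 1.94-fold (0.95 ± 0.21, adjusted p = 0.00482). Its second cluster rose by 0.34 (adjusted p = 0.0244). The receptors themselves were not called, with TNFRSF10A at -0.27 (adjusted p = 0.0802), FAS at -0.04 and TNFRSF10B at 0.04, nor was CASP8 at -0.03.

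**Figure D4:**
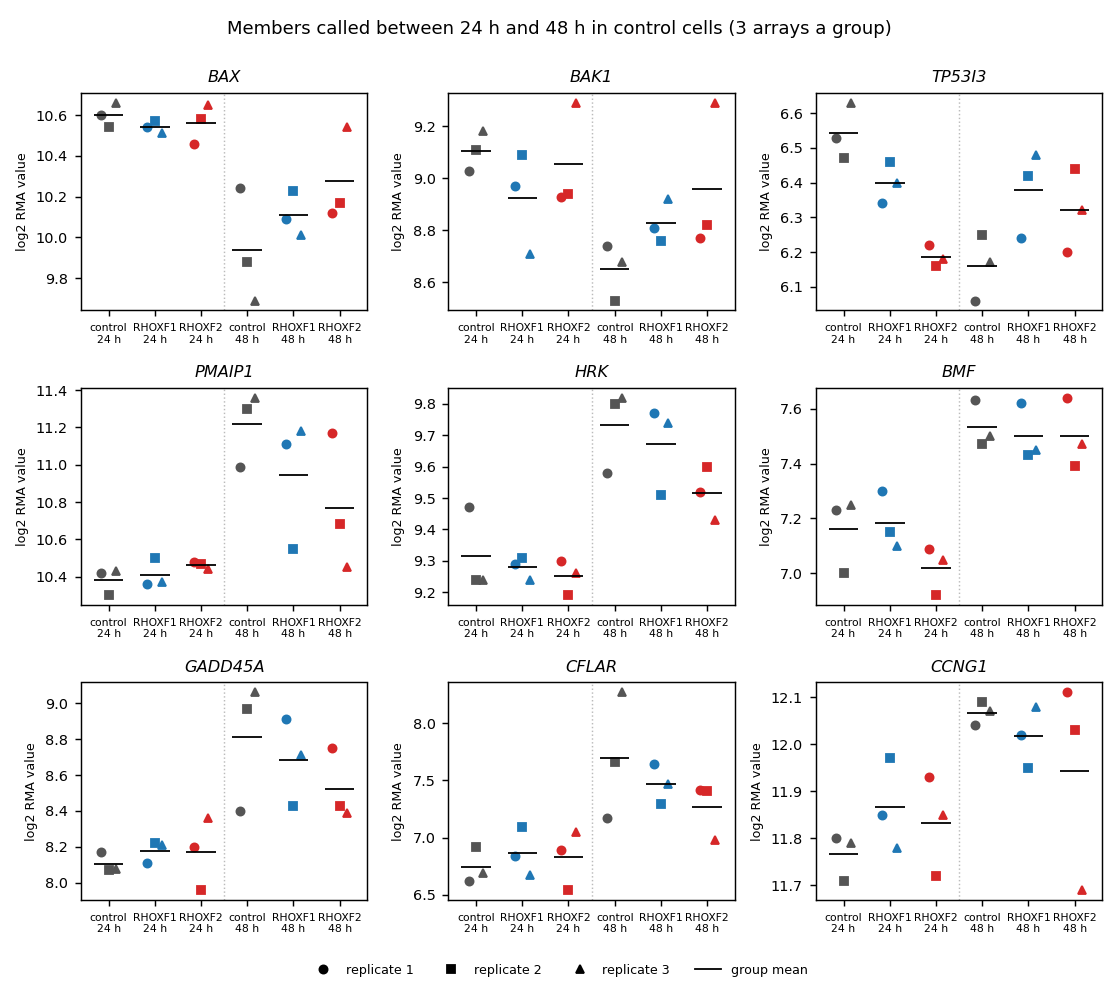
Log2 RMA value (y axis) on each array (points, shape by replicate number) of the 9 members called between control 48 h and 24 h, in the 6 groups (x axis), with group means as bars. In control cells the 48 h arrays lie wholly above or below the 24 h arrays for all 9, and for 7 of them RHOXF2 replicate 3 at 48 h is the 48 h array of its group nearest the control level at 24 h.

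Of the p53 targets of arrest and repair, GADD45A rose 1.63-fold (0.70 ± 0.15, adjusted p = 0.0049), from 8.17, 8.07 and 8.08 to 8.40, 8.97 and 9.06. TP53I3 fell by 0.38 ± 0.09 (adjusted p = 0.00582), from 6.53, 6.47 and 6.63 to 6.06, 6.25 and 6.17. Beside this dim gene, the second of 5 bins by level had a median change of -0.10, and 15 of 22 markers of other cell types had a change below 0, 2 of them called; their part was not tested. CCNG1 rose by 0.30 ± 0.10 (adjusted p = 0.0358), from 11.80, 11.71 and 11.79 to 12.04, 12.09 and 12.07. None of these groups overlapped, but the CCNG1 call was lost without any 1 of the 6 control arrays (range over the alternatives 0.0176 to 0.113). CDKN1A gave 0.16 (adjusted p = 0.345), MDM2 -0.22 ± 0.09 (adjusted p = 0.0774) and AEN -0.27 (adjusted p = 0.41). Of the guardians and the apoptosome genes 0 of 9 were called (17.8% of all clusters), the nearest being XIAP at 0.29 (adjusted p = 0.0722).

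Without overlap between the times lay 17 of 38 members in control cells (30.3% of all clusters), 10 with RHOXF1 (29.8%) and 6 with RHOXF2 (20.1%). MDM2 was lower at 48 h without overlap in all 3 vectors, although not called in any. Its 24 h and 48 h arrays with RHOXF1 were 10.87, 10.93 and 10.99 against 10.68, 10.80 and 10.58 (-0.24, adjusted p = 0.112). With RHOXF2 they were 10.91, 10.80 and 11.00 against 10.69, 10.68 and 10.75 (-0.20, adjusted p = 0.251).

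In the RHOX arrays fewer members passed the test over time, as did fewer clusters of the whole table. With RHOXF1 1 of 38 was called (4.42% of all clusters): HRK rose by 0.39 ± 0.09 (adjusted p = 0.0239), from 9.29, 9.31 and 9.24 to 9.77, 9.51 and 9.74, without overlap. BAX gave -0.43 ± 0.12 (adjusted p = 0.0509) and PMAIP1 0.54 ± 0.16 (adjusted p = 0.0595). The HRK call was lost without RHOXF1 replicate 2 or 3 at 24 h or replicate 1 or 3 at 48 h, with a range of adjusted p over the alternatives of 0.00198 to 0.108. The count of called members became 2 without RHOXF1 replicate 1 at 24 h, 3 without replicate 2 at 48 h and 0 without any of these other 4 arrays. With RHOXF2 1 of 38 was called (1.24% of all clusters): BMF rose by 0.48 ± 0.09 (adjusted p = 0.0251), from 7.09, 6.92 and 7.05 to 7.64, 7.39 and 7.47, without overlap. BAD gave 0.23 ± 0.07 (adjusted p = 0.113) and HRK 0.27 ± 0.09 (adjusted p = 0.137). The BMF call was lost without RHOXF2 replicate 2 or 3 at 24 h or replicate 1 or 2 at 48 h, or with only the RHOXF2 groups in the fit (range 0.00971 to 0.128). Without RHOXF2 replicate 3 at 48 h, BMF gave 0.50 (adjusted p = 0.0188), BAD 0.18 and HRK 0.31.

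The 9 members called in control are described over time with each vector, and were chosen by their change in control. The RHOXF1 arrays gave the same sign for 9 and the RHOXF2 arrays for 8, all but TP53I3 (0.13). PMAIP1, for example, gave 0.84 in control, 0.54 with RHOXF1 and 0.30 with RHOXF2, and CFLAR 0.95, 0.60 and 0.45. BAX gave -0.66, -0.43 and -0.29. BMF had its largest change with RHOXF2, at 0.37 in control, 0.32 with RHOXF1 and 0.48 with RHOXF2. Over all clusters the median size of a change over time, whatever its sign, was 0.153 in control, 0.108 with RHOXF1 and 0.101 with RHOXF2, and over the 38 members 0.169, 0.0917 and 0.0911. No difference between vectors in the members' time changes was called, the smallest adjusted p being 0.488, so these sizes are a description.

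**Figure D5:**
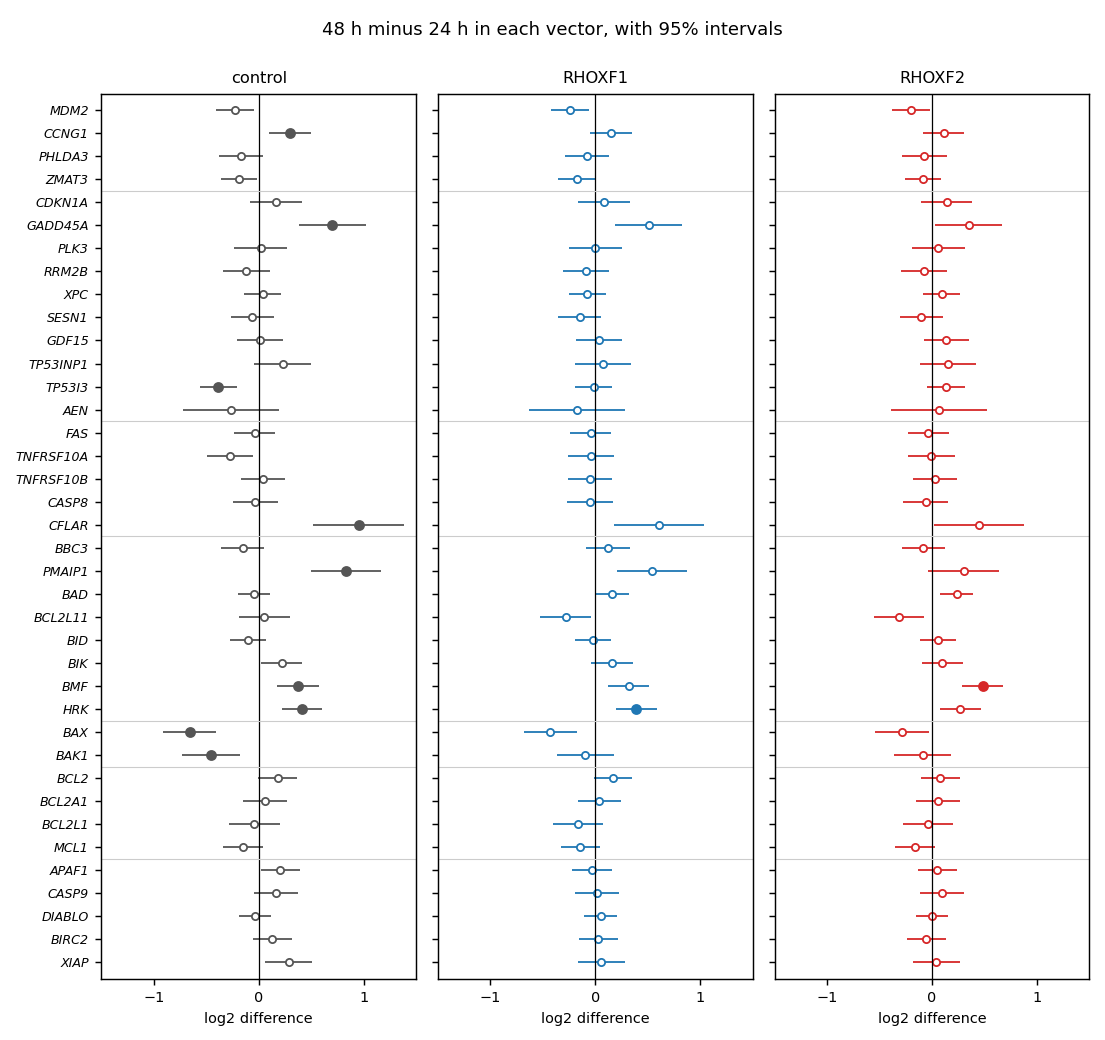
Log2 difference between 48 h and 24 h (x axis) for the 38 genes (y axis, grouped by role) in control, RHOXF1 and RHOXF2 cells; points are limma estimates over 3 arrays against 3, bars their 95% intervals, filled points adjusted p under 0.05. Filled points number 9 in control, 1 (HRK) with RHOXF1 and 1 (BMF) with RHOXF2.

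ATF4, CHOP and genes downstream of them respond to amino acid shortage and endoplasmic reticulum stress. In control over time all 12 listed had a change above 0. Of them 5 were called, all higher, where 9.89% of all clusters were called higher, and 7 did not pass. The called genes were VLDLR (0.97), DDIT3, which encodes CHOP (0.95), ASNS (0.88), ATF3 (0.71) and PPP1R15A (0.55). Across the 12 the median change was 0.63 in control, 0.52 with RHOXF1 (4 of 12 called) and 0.34 with RHOXF2 (0 of 12 called). With RHOXF2, 4 of the 12 lay at an unadjusted p under 0.05, against 16.7% of all clusters. The part of these 12 genes in the changes of PMAIP1, CFLAR or GADD45A was not tested. Against control, 0 of the 12 were called in any of the 4 comparisons. At 24 h 0 had an unadjusted p under 0.05 with RHOXF1 (4.76% of all clusters) or with RHOXF2 (7.99%). At 48 h 1 had such a p with RHOXF1 (7.22%) and 2 with RHOXF2 (12.2%). At 24 h 11 of the 12 had a difference above 0 with RHOXF2 (median 0.20, 48.8% of all clusters above 0). With RHOXF1 7 did (median 0.05, 50.1% of all clusters). At 48 h the medians were -0.12 with RHOXF1 and -0.08 with RHOXF2. Above 0 lay 4 and 5 of the 12 (52.6% and 53.9% of all clusters).

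Other genes of the p53 pathway were read from a wider list. Of 40 listed, 35 had a cluster of their own, and 0 were called against control in any of the 4 comparisons. At an unadjusted p under 0.05 there was 1 with RHOXF1 at 24 h (4.76% of all clusters), 1 with RHOXF2 at 24 h (7.99%), 3 with RHOXF1 at 48 h (7.22%) and 6 with RHOXF2 at 48 h (12.2%). MDM4, the partner of MDM2 in restraining p53, came nearest. It gave -0.53 ± 0.13 with RHOXF1 at 48 h (adjusted p = 0.388) and -0.54 ± 0.13 with RHOXF2 at 48 h (adjusted p = 0.143). Both values use the same 3 control arrays at 48 h, so they are not independent. In control MDM4 was itself higher at 48 h than at 24 h, by 0.52. The kinase gene ATM gave -0.35 ± 0.12 with RHOXF2 at 48 h (adjusted p = 0.253). Over time in control cells 9 of 35 were called, against 17.8% of all clusters. Of these 6 rose, among them the repair gene DDB2 (0.64), MDM4 (0.52) and SESN3 (0.40). Another 3 fell, namely TIGAR (-0.69), the decoy receptor TNFRSF10D (-0.49) and TRIAP1 (-0.37). With RHOXF1 SESN3 (0.36) and DDB2 (0.52) were called over time, both higher, where 4.42% of all clusters were called. With RHOXF2 0 of 35 were called (1.24% of all clusters), with 7 at an unadjusted p under 0.05 (16.7%).

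Of 36 further apoptosis genes, 30 had a cluster of their own and 0 were called against control in any of the 4 comparisons. At an unadjusted p under 0.05 there were 2 with each gene at 24 h, 2 with RHOXF1 at 48 h and 4 with RHOXF2 at 48 h, against the same shares of all clusters. The smallest p at 48 h with RHOXF2 belonged to the inhibitor NAIP (-0.44 ± 0.14) and to BCL2L12 (0.29 ± 0.09), both at an adjusted p of 0.236. Over time in control cells 7 of 30 were called, again against 17.8% of all clusters. BCL2L13 (0.51), NAIP (0.40) and DFFA (0.31) rose, and AIFM1 (-0.41), cytochrome c CYCS (-0.36), BCL2L12 (-0.35) and BCL2L14 (-0.28) fell. With RHOXF1 only BCL2L13 was called over time (0.49, adjusted p = 0.04), where 4.42% of all clusters were called. With RHOXF2 0 of 30 were called (1.24% of all clusters), with 4 at an unadjusted p under 0.05 (16.7%).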

How the data were processed

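RNA from 18 cultures was measured on Affymetrix Human Gene 1.0 ST arrays, 1 per sample. The values are log2 RMA expression values per transcript cluster as deposited by the authors, who used Expression Console 3.1 per the labels. RMA subtracts background, quantile-normalizes and summarises probes, which can compress large differences. The series text names an exon array, and the genome build is not given in the sources used here. Symbols came from the platform's probe table, and 12083 clusters with no symbol were not tested.

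All 21214 named clusters entered 1 linear model per cluster in limma 3.58.1 (R 4.3.3), with a mean for each group, moderated variances (eBayes) and 12 residual degrees of freedom, and no filter. Tests were two-sided, adjusted by Benjamini-Hochberg over all clusters in each of 11 comparisons, at 0.05. SE is limma's moderated error. The fit was tested on simulated data. Whether replicate numbers pair the samples was checked on deviations from group means. At 24 h every same-numbered pair of a RHOX and a control array correlated above 0.1 (0.328 to 0.452 for RHOXF1, 0.134 to 0.504 for RHOXF2). These were therefore taken as paired, from the data and not from the labels. At 48 h no such pair correlated above 0.1 (-0.346 to 0.0345), and between RHOXF1 and RHOXF2 not every pair did. Arrays with different numbers were not correlated, so the pairing is not established. The number of arrays limits the precision, and p-values measure only the spread between these cultures.

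The members and gene lists were chosen with earlier results of these data known. Named members are every member called, the 5 with the smallest p in each comparison with control and the 3 in each other comparison, and the rest are given by role. Others described in full, such as MDM2, CDKN1A, FAS and AEN, were chosen after their values were seen. The lists were other p53 pathway genes, other apoptosis genes, ATF4 and CHOP stress genes, HEK293 markers and markers of other cell types. Alternatives repeated the normalization (quantile, cyclic loess), kept only clusters above the median level, fitted only the groups compared, used trended and robust eBayes, array weights or a replicate block, counted every cluster of a member, and left out each array in turn. Promoter windows are from RefSeq (GRCh38.p14), matched by symbol for 30 members.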

Additional observations from a re-analysis of the deposited data

How the results depend on the processing

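Of 631 alternative values for 47 named results of single members, 599 kept their direction and side of the threshold, 22 lost a call, 10 gained one and 0 changed sign. Most of the 47 were not called in the main fit, so keeping their side says little. Over time in control, the call was lost for CCNG1 in 7 of 13 alternatives, BAK1 in 4 of 13 and BMF in 2 of 12. Over time, it was lost for HRK with RHOXF1 in 4 of 13 and BMF with RHOXF2 in 5 of 12. The count of members called stayed at 0 in every alternative run for the 4 comparisons with control, the comparisons of RHOXF1 with RHOXF2 and the changes of effect between times. In control cells over time it ran from 6 to 10, and from 6 to 9 with 1 array left out. Over time with RHOXF1 (1 called) it was 2 after quantile normalization, cyclic loess or trended and robust eBayes, 4 among clusters above the median level, 6 with only those groups fitted, 7 with array weights, and 0 to 3 with 1 array left out. Over time with RHOXF2 (1 called) it was 0 among clusters above the median level, where BMF was not tested, and 0 with only those groups fitted, and 0 to 1 with 1 array left out. Replicate numbers were taken to pair the RHOX arrays with control at 24 h. With the replicate block 0 members were called in these 2 comparisons, with adjusted p of 0.81 to 0.997 for RHOXF1 and 0.314 to 0.994 for RHOXF2. The block raised the count over time with RHOXF1 to 2, and left the other counts of called members the same.

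Medians of members stayed near 0. With RHOXF1 at 48 h against control the median was 0.0225 among clusters above the median level, -0.0214 with every cluster counted and -0.0339 to 0.0184 with 1 array left out. With RHOXF2 at 48 h it was 0.0878 after quantile normalization and 0.0287 to 0.0984 with 1 array left out, and at 24 h -0.0153 to 0.07. RHOXF1 against RHOXF2 gave -0.0177 to 0.0196 at 24 h and -0.0258 to 0.019 at 48 h with 1 array left out. Over time the median with RHOXF1 was 0.00869 after quantile normalization, -0.0295 among clusters above the median level and -0.0222 to 0.0325 with 1 array left out. With RHOXF2 it was 0.0141 among clusters above the median level and 0.0167 to 0.0659 with 1 array left out. Where no construction of the alternative is named, the cause was not tested.

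Counts over all clusters moved more. Over time in control cells 3772 were called, and 1595 to 4077 under the alternatives. With RHOXF1 937 were called (13 to 2907) and with RHOXF2 264 (4 to 848). Against control with RHOXF2 at 48 h 20 were called (4 to 125).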
